A study of Homo sapiens with 10 samples.

Results

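Replication-dependent histone genes encode the core histones H2A, H2B, H3 and H4, around which DNA is wrapped, and the linker histone H1, which binds the DNA entering and leaving the nucleosome. The genes were taken by name from the deposited long RNA tables: protein-coding genes whose symbol starts with HIST1H, HIST2H, HIST3H or HIST4H. This gave 71 of 55771 gene symbols, with 6 genes of H1, 17 of H2A, 18 of H2B, 15 of H3 and 15 of H4. By locus, 55 genes lay in HIST1 on chromosome 6, 12 in HIST2 and 3 in HIST3 on chromosome 1, and 1, HIST4H4, on chromosome 12.

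These genes have no introns as a rule, are transcribed mainly while DNA is replicated, and are kept in many copies with nearly the same coding sequence. Their mRNAs usually end in a stem-loop bound by SLBP in place of a poly(A) tail, so methods that select poly(A) tails miss most of them, while methods that only deplete ribosomal RNA keep them. NPAT, a substrate of cyclin E with CDK2, activates their transcription in nuclear bodies that sit on the histone clusters.

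The libraries were made from ribosomal RNA-depleted total RNA of BEAS-2B, a virus-transformed line of human bronchial epithelial cells. Of the 5 libraries, 3 are labelled TAF1C, from cells stably carrying a TAF1C vector with the pCMV6 promoter, and 2 are labelled eV, from cells stably carrying the empty vector. TAF1C is a subunit of the selectivity factor that directs RNA polymerase I to ribosomal DNA. All lines were grown in LHC9 medium with serum and held under the selection drug G418, and the labels give neither the number of clones nor whether the libraries of a group came from separate cultures, so every p-value below measures only the spread between these libraries.

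Gene counts totalled 34212883 to 37533366 in the libraries labelled TAF1C and 22809601 and 28476151 in those labelled eV. The TAF1C gene did not follow its label. It had 64.0, 59.0 and 67.0 CPM (counts scaled to a common library size, after TMM correction for RNA composition) in the libraries labelled TAF1C, against 64.4 and 77.7 CPM in those labelled eV, -0.17 ± 0.13 (SE) as a log2 fold change, with an adjusted p of 0.353 by edgeR. The groups overlapped, so every direction below is between libraries as labelled. The summed level of 13 bronchial epithelial markers was 1526 to 1633 CPM in the libraries labelled TAF1C, against 589 and 460 CPM in eV replicates 1 and 2. Of 11 tested, 6 rose and 2 fell by edgeR, and KRT5, TP63 and CDH1, which mark epithelial cells, were at 2.97 CPM or less in every library. The summed level of 25 photoreceptor markers was 27.1 to 37.5 CPM in the libraries labelled TAF1C, against 3648 and 2601 CPM in eV replicates 1 and 2. Of 22 tested, 19 fell and none rose by edgeR (0 at an unadjusted p under 0.05, 0 with DESeq2), and IMPG2 had 0.770, 0.529 and 0.990 CPM in TAF1C-labelled libraries, against 869 and 680 CPM in eV-labelled libraries. By edgeR, 15.9% of all genes tested rose and 22.6% fell. The part of either marker list in the histone results was not tested. In bulk RNA, fewer cells of one kind and less RNA per cell cannot be told apart.

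Histone RNA made up a larger share of the libraries labelled TAF1C. The 71 genes together took 2.35%, 2.26% and 2.36% of all gene counts in the libraries labelled TAF1C, against 1.61% and 2.08% in eV replicates 1 and 2. As CPM the sums were 25102, 24261 and 24992 in TAF1C-labelled libraries, against 13689 and 21041 in eV-labelled libraries, a ratio of the means of 1.43. Each library labelled TAF1C was above both labelled eV, but the eV libraries differed from each other by 1.54-fold, more than the 1.18-fold by which the mean of the libraries labelled TAF1C stood above eV replicate 2.

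The 5 classes kept nearly the same proportions. H4 had 4842, 5071 and 4965 CPM in the libraries labelled TAF1C, against 2533 and 3903 CPM in those labelled eV, a log2 ratio of the means of 0.62. H2B had 5487, 5421 and 5630 CPM in TAF1C-labelled libraries, against 2917 and 4577 CPM in eV-labelled libraries, a log2 ratio of 0.56, and H2A had 4492, 4277 and 4580 CPM in TAF1C-labelled libraries, against 2464 and 3745 CPM in eV-labelled libraries, a log2 ratio of 0.52. H3 had 5438, 5040 and 5151 CPM in TAF1C-labelled libraries, against 2822 and 4562 CPM in eV-labelled libraries, a log2 ratio of 0.50, and H1 had 4842, 4451 and 4666 CPM in TAF1C-labelled libraries, against 2953 and 4253 CPM in eV-labelled libraries, a log2 ratio of 0.37. In every class all libraries labelled TAF1C lay above both labelled eV, and eV replicate 2 lay closer to them than replicate 1. Without eV replicate 1 the log2 ratios were 0.06 for H1, 0.18 for H2A, 0.20 for H2B, 0.13 for H3 and 0.28 for H4. Without eV replicate 2 they were 0.62, 0.82, 0.89, 0.85 and 0.94 for the same classes. As shares of histone CPM, H1 made up 18.3% to 19.3% in the libraries labelled TAF1C and 20.2% and 21.6% in those labelled eV, and H4 made up 19.3% to 20.9% in the libraries labelled TAF1C and 18.5% and 18.6% in those labelled eV. These shares are of reads, and longer mRNAs such as those of H1 give more reads per molecule.

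**Figure D1:**
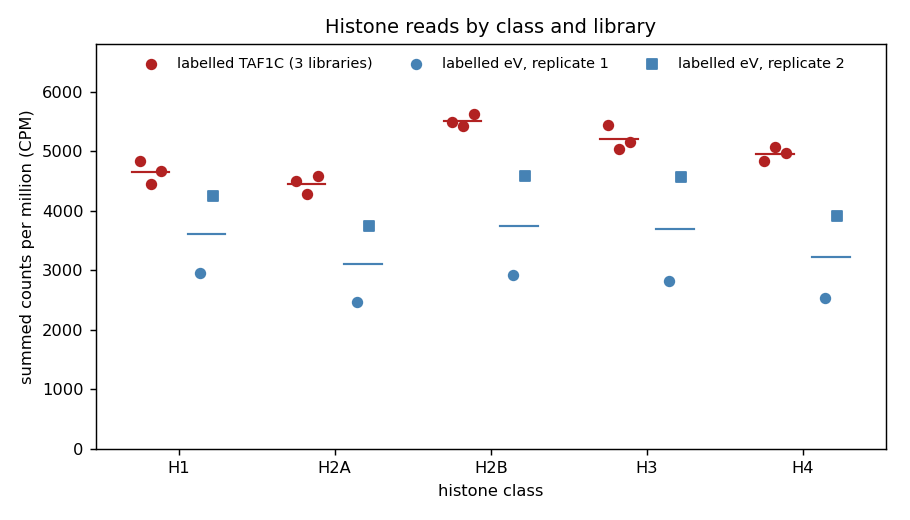
Summed CPM of each histone class (y axis) in every library, with the libraries labelled TAF1C left of those labelled eV and horizontal lines at the group means. In each class the 3 libraries labelled TAF1C lie above both labelled eV, and eV replicate 2 (square) lies between them and eV replicate 1 (circle).

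Gene by gene, 64 of the 71 genes reached at least 1 CPM in at least 2 libraries and were tested. With edgeR's quasi-likelihood test at an adjusted p under 0.05, 19 of the 64 rose in the libraries labelled TAF1C and 1, HIST1H3E, fell, while 44 did not pass. Over all 18402 genes tested, 15.9% rose and 22.6% fell. All 3 libraries labelled TAF1C lay above both labelled eV for 36 of the 64 genes and below both for 1, against 29.8% and 34.4% of all genes tested. The median log2 fold change was 0.49 over the 64 genes and -0.10 over all genes tested. Above 0 were 57 of the 64, against 8375 of the 18402 genes tested. Without eV replicate 1, 27 of 63 tested histone genes were below 0. By class, 3 of 5 tested H1 genes rose, 3 of 15 H2A, 5 of 17 H2B, 3 of 13 H3 and 5 of 14 H4, and the median log2 fold changes were 0.87, 0.48, 0.39, 0.50 and 0.57 in that order.

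The counts depended on single libraries. Without any 1 of the libraries labelled TAF1C, 11 genes rose and none fell (HIST1H3E had edgeR adjusted p = 0.0535 to 0.0666), which left out HIST1H1B, HIST1H2AG, HIST1H2AL, HIST1H2BE, HIST1H2BJ, HIST1H3F, HIST1H4C and HIST4H4. Of all genes tested, 5.84%, 6.48% and 5.94% rose and 11.3%, 10.7% and 11.1% fell without replicates 1, 2 and 3. Without eV replicate 1, 25 genes rose, all 19 among them, and 17 fell, against 29.0% and 29.5% of all genes tested. Without eV replicate 2, 62 genes rose and 1 fell, against 35.8% and 34.0%. With 1 library labelled eV, the spread comes from the libraries labelled TAF1C alone and the lone library is assumed to vary like them. The median coefficient of variation over the tested histone genes was 3.71% in the libraries labelled TAF1C and 39.0% in those labelled eV.

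One set of genes was low in both libraries labelled eV, and the other mostly in replicate 1 alone. Of the 19 genes that rose, 14 were lower in eV replicate 2 than in replicate 1, and the mean of the libraries labelled TAF1C was 1.41- to 4.85-fold that of eV replicate 2. All 44 genes that did not pass were higher in eV replicate 2 than in replicate 1, by 1.91-fold in the median, and the libraries labelled TAF1C stood at 0.397- to 1.39-fold of replicate 2. Against eV replicate 1, 52 of the 64 genes were over 1.5-fold higher in the libraries labelled TAF1C (25.5% of all genes tested), and against eV replicate 2 only 18 were (21.6% of all genes tested). The same values decided the calls, so this is a description of the 2 sets and no test.

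The linker histone genes held both kinds. HIST1H1A, a linker variant of dividing cells, had 169, 165 and 174 CPM in the libraries labelled TAF1C, against 79.8 and 68.2 CPM in those labelled eV, and rose by a log2 fold of 1.19 ± 0.12 (SE), with an adjusted p of 0.00161 by edgeR. HIST1H1D, which encodes H1.3, had 607, 584 and 586 CPM in TAF1C-labelled libraries, against 300 and 331 CPM in eV-labelled libraries and rose by a log2 fold of 0.91 ± 0.13 (edgeR adjusted p = 0.00501). HIST1H1B, which encodes H1.5, had 1461, 1366 and 1436 CPM in TAF1C-labelled libraries, against 816 and 736 CPM in eV-labelled libraries, a log2 fold change of 0.87 ± 0.16 (edgeR adjusted p = 0.0105, and 0.0637 to 0.0813 without any 1 library labelled TAF1C). The groups were far apart for all 3 genes, and HIST1H1A and HIST1H1B were slightly lower in eV replicate 2 than in replicate 1.

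HIST1H1C and HIST1H1E, which encode H1.2 and H1.4 and are expressed in most somatic cells, had values on both sides. HIST1H1C had 1072, 988 and 1029 CPM in the libraries labelled TAF1C, against 855 and 1355 CPM in those labelled eV (log2 fold change -0.10 ± 0.23; edgeR adjusted p = 0.753). HIST1H1E had 1533, 1348 and 1441 CPM in TAF1C-labelled libraries, against 902 and 1760 CPM in eV-labelled libraries (log2 fold change 0.11 ± 0.31; edgeR adjusted p = 0.789). For both, eV replicate 1 lay below and replicate 2 above all libraries labelled TAF1C, and the sign of the difference turned with the library left out. HIST1H1E had a log2 fold change of -0.35 (edgeR adjusted p = 3.79e-05) without eV replicate 1, and HIST1H1C one of 0.24 (edgeR adjusted p = 0.00257) without eV replicate 2. Within H1, HIST1H1B gave 30.2% to 30.8% of H1 CPM in the libraries labelled TAF1C, against 27.6% and 17.3% in eV replicates 1 and 2. HIST1H1C gave 22.1% to 22.2% in the libraries labelled TAF1C, against 29.0% and 31.9% in those labelled eV, the opposite order.

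The promoters of HIST1H1B, which rose, and HIST1H1C, which did not pass, are shown to compare a linker gene of each kind. Both are the 250 bases upstream of the RefSeq start in GRCh38.p14, read 5′ to 3′ on the gene's own minus strand, at chr6:27867589-27867838 for HIST1H1B and chr6:26056471-26056720 for HIST1H1C. Capitals mark the H1 box AAACACA and the CCAAT box on either strand, both elements known from H1 promoters.
HIST1H1B: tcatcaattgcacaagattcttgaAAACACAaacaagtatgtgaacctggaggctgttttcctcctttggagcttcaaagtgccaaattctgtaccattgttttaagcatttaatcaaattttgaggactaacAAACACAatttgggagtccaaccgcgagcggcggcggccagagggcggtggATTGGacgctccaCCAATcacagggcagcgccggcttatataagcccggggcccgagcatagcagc
HIST1H1C: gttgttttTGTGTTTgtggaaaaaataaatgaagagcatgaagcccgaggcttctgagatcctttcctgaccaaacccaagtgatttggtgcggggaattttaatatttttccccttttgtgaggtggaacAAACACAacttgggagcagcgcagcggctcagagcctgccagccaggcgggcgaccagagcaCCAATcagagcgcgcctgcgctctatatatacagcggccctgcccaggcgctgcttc
Both windows held 2 copies of AAACACA on either strand, and the windows of all 6 H1 genes held at least 1, against 4.95% of the 27305 promoters in the RefSeq table. HIST1H1B had 2 CCAAT boxes and HIST1H1C 1. No window of another histone class held AAACACA.

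**Figure D2:**
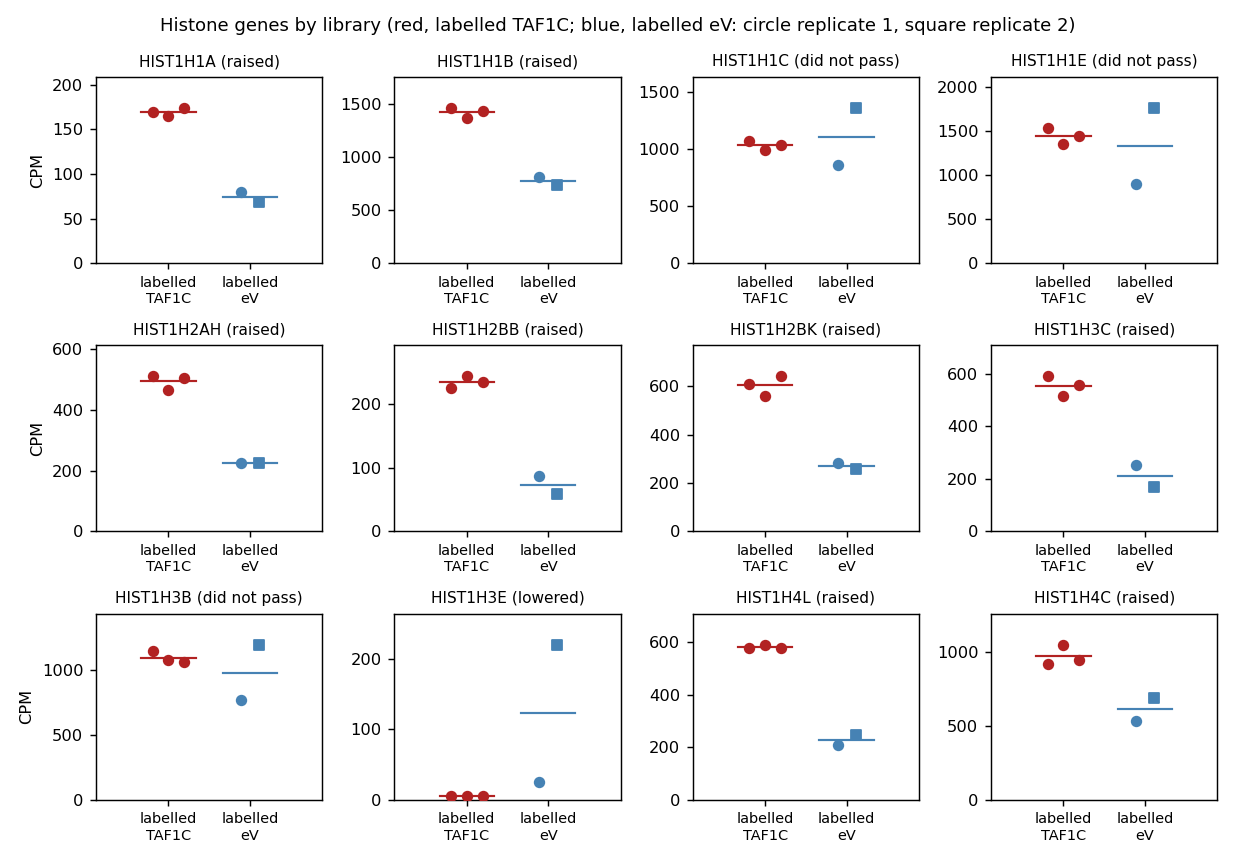
CPM of 12 histone genes (y axes, each from 0) in every library, with the libraries labelled TAF1C in red on the left, those labelled eV in blue on the right, and lines at the group means. HIST1H1A, HIST1H2AH and HIST1H4L show 2 eV libraries close together and below the rest, while HIST1H1C, HIST1H1E and HIST1H3B show eV replicates on either side of the libraries labelled TAF1C.

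Among H2A genes, whose products form a dimer with H2B, HIST1H2AH had nearly equal eV values. It gave 509, 465 and 504 CPM in the libraries labelled TAF1C, against 227 and 226 CPM in those labelled eV, and rose with a log2 fold change of 1.12 ± 0.13 (edgeR adjusted p = 0.00227). HIST1H2AL had 168, 157 and 187 CPM in TAF1C-labelled libraries, against 97.0 and 56.8 CPM in eV-labelled libraries (log2 fold change 1.15 ± 0.25; edgeR adjusted p = 0.0164, and 0.0619 to 0.0678 without any 1 library labelled TAF1C). HIST1H2AG had 519, 469 and 520 CPM in TAF1C-labelled libraries, against 354 and 282 CPM in eV-labelled libraries (log2 fold change 0.66 ± 0.16; edgeR adjusted p = 0.0236, and 0.0801 to 0.113 without any 1 library labelled TAF1C). In all 3 genes the groups were separate. The H2A genes with the most counts did not pass. HIST1H2AE had 775, 717 and 793 CPM in the libraries labelled TAF1C, against 442 and 711 CPM in those labelled eV (log2 fold change 0.40 ± 0.23; edgeR adjusted p = 0.218), and HIST1H2AC had 597, 598 and 602 CPM in TAF1C-labelled libraries, against 331 and 527 CPM in eV-labelled libraries (0.48 ± 0.22; edgeR adjusted p = 0.136). Both stood above eV replicate 2 by a small margin only.

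Among H2B genes, the partners of H2A, the largest log2 fold change of the 64 was that of HIST1H2BB. It had 225, 243 and 234 CPM in the libraries labelled TAF1C, against 87.3 and 58.5 CPM in those labelled eV (log2 fold change 1.68 ± 0.20; edgeR adjusted p = 0.00252). HIST1H2BE had 79.5, 78.7 and 85.7 CPM in TAF1C-labelled libraries, against 40.8 and 16.8 CPM in eV-labelled libraries (1.5 ± 0.37; edgeR adjusted p = 0.0258, and 0.0784 to 0.0903 without any 1 library labelled TAF1C). Both were lower in eV replicate 2 than in replicate 1, opposite to the sum of the class. HIST1H2BH had 310, 309 and 311 CPM in TAF1C-labelled libraries, against 155 and 145 CPM in eV-labelled libraries (1.05 ± 0.11; edgeR adjusted p = 0.00198), with each group close together. HIST1H2BK had 611, 560 and 641 CPM in TAF1C-labelled libraries, against 284 and 259 CPM in eV-labelled libraries (1.15 ± 0.14; edgeR adjusted p = 0.00297), but the small gene HIST1H4I lies inside its RefSeq locus, and the sources used here do not give the counting strand, so reads of the pair may be shared. HIST2H2BF, which took the most counts of the H2B genes over a RefSeq locus of 29682 bases, had 748, 761 and 777 CPM in the libraries labelled TAF1C, against 289 and 565 CPM in those labelled eV, and did not pass (0.84 ± 0.30; edgeR adjusted p = 0.0718, DESeq2 adjusted p = 0.0184). HIST1H2BC had 603, 612 and 605 CPM in TAF1C-labelled libraries, against 331 and 601 CPM in eV-labelled libraries (0.38 ± 0.26; edgeR adjusted p = 0.297) and lay just above eV replicate 2.

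Many H2A and H2B genes are arranged head to head over a shared promoter. RefSeq gave 12 pairs of histone genes with opposite strands and starts no more than 300 bases apart, 1 of them HIST1H3D with HIST1H2BF. The untested HIST1H2AD, also paired with HIST1H2BF among the 12, has the same gap of 222 bases, so 1 promoter enters under 2 pairs. In 10 pairs both genes were tested, and in these the calls were alike: both rose in 1 pair, HIST1H2BJ with HIST1H2AG, and neither passed in 9. Most tested histone genes, 44 of 64, did not pass in any case. The log2 fold changes of HIST1H2BJ and HIST1H2AG were 0.69 ± 0.16 and 0.66 ± 0.16, and HIST1H2BJ lost its call without any 1 library labelled TAF1C (edgeR adjusted p = 0.0838 to 0.0976). Over the 10 pairs the members of a pair differed by 0.16 in the median on the log2 scale. Their log2 fold changes had a Pearson r of 0.78 and a Spearman rho of 0.78 across gene pairs. The pairs share the same 5 libraries and are no independent replicates. Both values include HIST3H2A with HIST3H2BB, the lowest pair at -0.65 for each gene, and were not computed without it. The largest difference within the 10 pairs was that of HIST1H2AM, at about 1 CPM, and HIST1H2BO, with log2 fold changes of -0.38 and 0.17.

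The shared promoters of the pair that rose and of a pair that did not, HIST1H2AE with HIST1H2BG, are shown side by side. Both run between the RefSeq starts in GRCh38.p14, are printed 5′ to 3′ on the plus strand, which is that of the H2A gene, and lie at chr6:27132796-27133042 (247 bases) and chr6:26216689-26216920 (232 bases). Capitals mark, on either strand, the octamer ATTTGCAT, which binds OCT1 and is known from H2B promoters, the CCAAT box and the TATA box, spelled TATAAA. Where 8 capitals hold the TATA box on both strands, the 2 matches overlap.
HIST1H2AG and HIST1H2BJ: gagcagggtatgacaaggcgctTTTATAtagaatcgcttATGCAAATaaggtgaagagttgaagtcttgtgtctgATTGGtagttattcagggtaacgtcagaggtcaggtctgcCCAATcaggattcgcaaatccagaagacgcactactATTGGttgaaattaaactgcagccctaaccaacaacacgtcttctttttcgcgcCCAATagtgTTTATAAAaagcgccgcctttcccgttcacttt
HIST1H2AE and HIST1H2BG: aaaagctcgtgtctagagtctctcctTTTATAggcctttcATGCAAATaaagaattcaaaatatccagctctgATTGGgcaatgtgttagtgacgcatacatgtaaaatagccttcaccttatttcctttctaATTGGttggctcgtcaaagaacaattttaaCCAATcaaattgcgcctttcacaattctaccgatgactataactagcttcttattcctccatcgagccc
Both hold 1 octamer next to a TATA box near the H2B start, with 4 CCAAT boxes in the first pair and 3 in the second. Within 250 bases upstream, the octamer was found at 14 of 18 H2B and 11 of 16 H2A genes in the table, against 1.66% of all promoters there; the windows of paired genes overlap, so these counts are not independent. All 5 H2B genes that rose and 8 of 12 that did not pass held it, so it was present at genes of both kinds.

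Among H3 genes, HIST1H3C had 590, 515 and 555 CPM in the libraries labelled TAF1C, against 253 and 169 CPM in those labelled eV, and rose with a log2 fold change of 1.39 ± 0.21 (edgeR adjusted p = 0.00568). HIST1H3I had 477, 445 and 459 CPM in TAF1C-labelled libraries, against 225 and 197 CPM in eV-labelled libraries (1.13 ± 0.13; edgeR adjusted p = 0.0026). HIST1H3F had 412, 384 and 385 CPM in TAF1C-labelled libraries, against 260 and 214 CPM in eV-labelled libraries (0.73 ± 0.14; edgeR adjusted p = 0.0125, and 0.0615 to 0.0752 without any 1 library labelled TAF1C). All 3, which like most of the class encode a canonical H3 of nucleosomes assembled during replication, were lower in eV replicate 2 than in replicate 1. HIST1H3B, with the highest level per length of all 62 genes with a locus under 1000 bases (2059 CPM per kilobase over the 5 libraries), had 1151, 1081 and 1064 CPM in the libraries labelled TAF1C, against 767 and 1198 CPM in those labelled eV (0.16 ± 0.23; edgeR adjusted p = 0.609). Its log2 fold change was -0.19 (edgeR adjusted p = 0.0127) without eV replicate 1. HIST1H3D had 742, 672 and 681 CPM in TAF1C-labelled libraries, against 333 and 597 CPM in eV-labelled libraries, and did not pass (0.59 ± 0.27; edgeR adjusted p = 0.132).

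HIST1H3E was the single histone gene that fell. It had 5.87, 5.74 and 5.60 CPM in the libraries labelled TAF1C, against 25.5 and 220 CPM in eV replicates 1 and 2, a log2 fold change of -4.42 ± 0.84 (edgeR adjusted p = 0.0112, and 0.0535 to 0.0666 without any 1 library labelled TAF1C). The level was even and low in the libraries labelled TAF1C, and the eV libraries differed from each other by 8.62-fold. The log2 fold change was -5.32 without eV replicate 1 and -2.18 without replicate 2. Its neighbours in the HIST1 order, HIST1H2AE and HIST1H1D, had log2 fold changes of 0.40 and 0.91. Because it went against the rest, its promoter is shown: 250 bases upstream of the RefSeq start in GRCh38.p14 at chr6:26223928-26224177, plus strand, with CCAAT and TATAAA on either strand in capitals.
HIST1H3E: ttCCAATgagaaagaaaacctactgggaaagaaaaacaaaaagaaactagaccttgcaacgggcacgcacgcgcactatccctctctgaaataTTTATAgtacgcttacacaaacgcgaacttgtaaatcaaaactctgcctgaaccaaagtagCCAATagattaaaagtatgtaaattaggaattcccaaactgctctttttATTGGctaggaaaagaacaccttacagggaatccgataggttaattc
It held 3 CCAAT boxes, and CCAAT was found at all 13 H3 genes in the table. The RefSeq locus of HIST1H3E is 3296 bases long, so this window need not lie next to the coding sequence.

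Among H4 genes, which encode the histone with the fewest sequence variants, HIST1H4L had 577, 591 and 579 CPM in the libraries labelled TAF1C, against 208 and 245 CPM in those labelled eV, and rose with a log2 fold change of 1.36 ± 0.14 (edgeR adjusted p = 0.00176). HIST1H4F had 365, 403 and 366 CPM in TAF1C-labelled libraries, against 141 and 186 CPM in eV-labelled libraries (1.21 ± 0.17; edgeR adjusted p = 0.00422), and HIST1H4I, inside the RefSeq locus of HIST1H2BK, had 286, 282 and 294 CPM in TAF1C-labelled libraries, against 154 and 147 CPM in eV-labelled libraries (0.93 ± 0.11; edgeR adjusted p = 0.0027). In these genes both eV libraries lay far below the rest. HIST1H4C, second in level per length at 2042 CPM per kilobase, had 920, 1050 and 945 CPM in TAF1C-labelled libraries, against 532 and 690 CPM in eV-labelled libraries (0.67 ± 0.18; edgeR adjusted p = 0.0347, and 0.122 to 0.139 without any 1 library labelled TAF1C). HIST4H4, which stands alone on chromosome 12, had 358, 344 and 340 CPM in TAF1C-labelled libraries, against 130 and 223 CPM in eV-labelled libraries (0.97 ± 0.24; edgeR adjusted p = 0.026, and 0.0849 to 0.0929 without any 1 library labelled TAF1C). For both, eV replicate 2 was above replicate 1 and below all libraries labelled TAF1C.

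The promoter of HIST1H4L is shown because the CCAAT box was rare in this class. It is the 250 bases upstream of the RefSeq start in GRCh38.p14 at chr6:27873535-27873784, on the minus strand, with CCAAT and TATAAA in capitals.
HIST1H4L: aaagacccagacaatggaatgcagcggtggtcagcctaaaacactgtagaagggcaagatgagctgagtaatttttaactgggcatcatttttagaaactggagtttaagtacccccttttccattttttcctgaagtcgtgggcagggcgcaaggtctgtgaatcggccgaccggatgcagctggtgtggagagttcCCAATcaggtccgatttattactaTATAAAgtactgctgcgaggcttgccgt
CCAAT on either strand was found at 3 of 13 H4 genes in the table, and at every gene of the other classes in the table, against 33.0% of all promoters. The 3 were HIST1H4F, HIST1H4I and HIST1H4L, which are 3 of the 4 H4 genes in the table that rose, and none of the 8 that did not pass held it. This was seen after the fold changes were known and carries no test. TATAAA on either strand was found at 44 of the 66 histone genes in the table and at 11.1% of all promoters.

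Along HIST1, the genes that rose lay in runs. In chromosome order, the 18 HIST1 genes that rose among 50 tested formed 7 runs, and 15 of them stood beside another that rose. The share that rose over all genes tested was 15.9%. Neighbouring genes may share reads or promoters, so they are no independent measurements, and the runs were not tested. The longest run held 5 genes: HIST1H2BJ, HIST1H2AG, HIST1H2BK, HIST1H4I and HIST1H2AH. Within it, HIST1H2BJ and HIST1H2AG share a promoter, and HIST1H4I lies inside the RefSeq locus of HIST1H2BK. A run of 4 held HIST1H1D, HIST1H4F, HIST1H3F and HIST1H2BH, with the untested HIST1H4G between them, another of 4 held HIST1H2AL, HIST1H1B, HIST1H3I and HIST1H4L, and a run of 2 held HIST1H2BB and HIST1H3C. HIST1H1A, HIST1H4C and HIST1H2BE rose alone. The runs depended on the libraries used: without any 1 library labelled TAF1C, 11 HIST1 genes rose, the longest run held 3 (HIST1H2BK, HIST1H4I and HIST1H2AH) and HIST1H2BJ and HIST1H2AG no longer passed, while without eV replicate 2, 48 of 49 rose and the longest run held 27. Runs therefore mixed the classes, and genes of 1 class rose in different runs. In the longest run the libraries labelled TAF1C were at 1.78- to 2.34-fold of eV replicate 2, and in the next 9 tested genes, HIST1H2BL to HIST1H2BN, none of which passed, they were at 0.580- to 1.06-fold of it. Against eV replicate 1 the same stretches gave 1.42- to 2.18-fold and 1.49- to 2.13-fold.

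**Figure D3:**
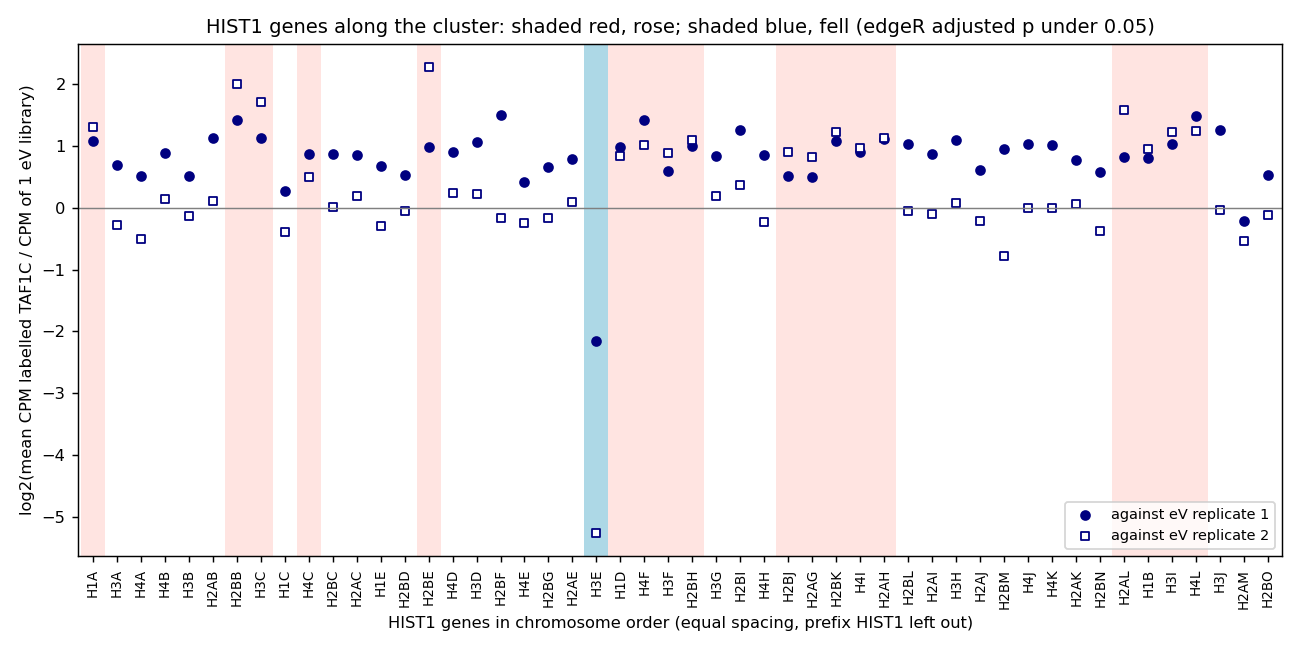
For each tested HIST1 gene in chromosome order (x axis, equal spacing), the log2 ratio of the mean CPM of the libraries labelled TAF1C to the CPM of eV replicate 1 (filled circles) or eV replicate 2 (open squares). Red shading marks the 18 genes that rose and blue the 1 that fell; in the red stretches both symbols lie above 0, and in most of the unshaded ones the squares lie near or below 0.

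Outside HIST1, HIST4H4 alone rose. In HIST2, none of the 11 tested genes passed edgeR's test in either direction, with 4 higher at an unadjusted p under 0.05 and 3 with DESeq2. All 11 log2 fold changes were above 0 (median 0.62), and 7 had all libraries labelled TAF1C above both labelled eV. Among all genes tested, 15.9% rose, 22.6% fell and 29.8% had all libraries labelled TAF1C above both labelled eV. All 11 were higher in eV replicate 2 than in replicate 1. The mean of the libraries labelled TAF1C was 2.36-fold eV replicate 1 in the median, but 1.18-fold replicate 2. Several HIST2 genes are near-identical copies (HIST2H2AA3 and HIST2H2AA4, HIST2H3A and HIST2H3C, HIST2H4A and HIST2H4B). Their split is uncertain, because the sources used here do not say how reads matching several genes were counted. In HIST3, the pair HIST3H2A and HIST3H2BB had lower values in the libraries labelled TAF1C than in eV replicate 2. HIST3H2A had 39.8, 40.9 and 39.6 CPM in TAF1C-labelled libraries, against 29.4 and 96.5 CPM in eV-labelled libraries (log2 fold change -0.65; edgeR adjusted p = 0.298), and HIST3H2BB had 44.8, 44.8 and 44.5 CPM in TAF1C-labelled libraries, against 27.7 and 113 CPM in eV-labelled libraries (-0.65; edgeR adjusted p = 0.367). Neither passed at an unadjusted p under 0.05 or with DESeq2, and eV replicate 1 was below the libraries labelled TAF1C in both.

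The 7 untested genes did not reach 1 CPM in 2 libraries. HIST2H3PS2 had no count in any library, and HIST1H2AD and HIST1H4G had no more than 4 counts in any. HIST1H2AD lies inside HIST1H3D in RefSeq, so reads of the pair may be shared. The 4 genes known from germ cells, HIST1H1T, HIST1H2AA, HIST1H2BA and HIST3H3, summed to 0.627, 0.853 and 0.928 CPM in the libraries labelled TAF1C, against 2.08 and 4.69 CPM in those labelled eV. HIST1H1T, the testis linker histone, had 12, 19 and 12 counts in TAF1C-labelled libraries, against 12 and 106 counts in eV-labelled libraries, and was the largest part of the sum except in eV replicate 1, where HIST1H2AA had 24 counts. Among 10 genes reported to make polyadenylated mRNA as well, 3 rose by edgeR (HIST1H2BJ, HIST1H2BK and HIST4H4). None fell by edgeR (0 also at an unadjusted p under 0.05 and with DESeq2). The shares over all genes tested were 15.9% that rose and 22.6% that fell. The median log2 fold change of the 10 genes was 0.43, near that of the 64 genes.

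SLBP, which binds the stem-loop, had 127, 122 and 113 CPM in the libraries labelled TAF1C, against 81.0 and 118 CPM in those labelled eV (log2 fold change 0.28 ± 0.18; edgeR adjusted p = 0.273). The groups overlapped. Of 20 genes for 3′ end processing and decay, 4 rose (LSM10, SYMPK, UPF1 and SNRPB), 1 fell (CASP8AP2) and 15 did not pass, with a median log2 fold change of 0.36; over all genes tested, 15.9% rose and 22.6% fell, so the share that rose was close to the background. LSM10, a subunit of the U7 particle that guides the cut, had 26.7, 24.9 and 25.6 CPM in TAF1C-labelled libraries, against 11 and 15 CPM in eV-labelled libraries (0.99 ± 0.19; edgeR adjusted p = 0.011, and 0.0559 to 0.0622 without any 1 library labelled TAF1C). UPF1, a helicase of histone mRNA decay, had 234, 219 and 235 CPM in TAF1C-labelled libraries, against 140 and 144 CPM in eV-labelled libraries (0.69 ± 0.11; edgeR adjusted p = 0.00668, and over 0.05 without replicate 1 or 3 labelled TAF1C, at 0.0532 and 0.0526). CASP8AP2, also called FLASH, which joins that cut, had 118, 129 and 116 CPM in TAF1C-labelled libraries, against 178 and 162 CPM in eV-labelled libraries (-0.49 ± 0.11; edgeR adjusted p = 0.0203, and 0.0671 to 0.117 without any 1 library labelled TAF1C).

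Among 19 tested genes that control histone transcription, 2 rose (CDK2 and CCNA2), 6 fell (CCNE1, E2F2, E2F3, POU2F1, HINFP and CUX1) and 11 did not pass, with a median log2 fold change of -0.30; with DESeq2, 3 rose and 4 fell. Over all genes tested more also fell than rose, 22.6% against 15.9% by edgeR and 4400 against 3678 genes with DESeq2, so the direction of the list's counts is also that of the background. Without any 1 library labelled TAF1C, only E2F2 and E2F3 of these 8 still passed. NPAT had 71.9, 78.5 and 67.2 CPM in the libraries labelled TAF1C, against 79.6 and 98.8 CPM in those labelled eV (-0.30 ± 0.14; edgeR adjusted p = 0.142), separate but close. E2F2, a cell cycle activator, had 21.3, 17.3 and 18.2 CPM in TAF1C-labelled libraries, against 54.0 and 45.3 CPM in eV-labelled libraries (-1.39 ± 0.15; edgeR adjusted p = 0.00208). HINFP, an activator of H4 genes, had 28.7, 25.8 and 29.3 CPM in TAF1C-labelled libraries, against 35.2 and 40.4 CPM in eV-labelled libraries (-0.44 ± 0.13; edgeR adjusted p = 0.0483, and 0.145 to 0.168 without any 1 library labelled TAF1C), and POU2F1, which encodes the octamer-binding OCT1, had 88.8, 100 and 90.4 CPM in TAF1C-labelled libraries, against 167 and 409 CPM in eV-labelled libraries (-1.63 ± 0.35; edgeR adjusted p = 0.0173, and 0.0715 to 0.0758 without any 1 library labelled TAF1C). Both were lower in every library labelled TAF1C than in either labelled eV. CDK2 had 74.1, 75.4 and 71.6 CPM in TAF1C-labelled libraries, against 44.9 and 53.7 CPM in eV-labelled libraries (0.58 ± 0.12; edgeR adjusted p = 0.0159, and 0.0714 to 0.0818 without any 1 library labelled TAF1C).

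The histone variants listed as replication-independent, whose mRNAs are mostly polyadenylated, had a median change close to 0. Of 12 tested, none rose by edgeR (1 at an unadjusted p under 0.05, 0 with DESeq2), 1 fell and the median log2 fold change was -0.01. By the same edgeR test, 15.9% of all genes rose and 22.6% fell. H3F3B, an H3.3 gene, had 721, 698 and 723 CPM in the libraries labelled TAF1C, against 466 and 772 CPM in those labelled eV (0.21 ± 0.24; edgeR adjusted p = 0.525). H2AFV, the one that fell, had 141, 139 and 138 CPM in TAF1C-labelled libraries, against 177 and 191 CPM in eV-labelled libraries (-0.40 ± 0.10; edgeR adjusted p = 0.0299, and 0.118 to 0.149 without any 1 library labelled TAF1C). H3F3B thus overlapped between groups and H2AFV did not.

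Of 22 tested histone chaperones, 3 rose (ASF1B, NAP1L4 and HJURP), 1 fell (ATRX) and the median log2 fold change was 0.22. Of all genes tested 15.9% rose and 22.6% fell, so neither the chaperones nor the S phase genes below rose more often than that. ASF1B, which hands H3 with H4 to the replication fork, had 94.1, 87.9 and 88.1 CPM in the libraries labelled TAF1C, against 50.5 and 68.7 CPM in those labelled eV (0.59 ± 0.16; edgeR adjusted p = 0.0314, and 0.102 to 0.119 without any 1 library labelled TAF1C). ATRX, which deposits H3.3 with DAXX, had 113, 125 and 114 CPM in TAF1C-labelled libraries, against 197 and 214 CPM in eV-labelled libraries (-0.81 ± 0.11; edgeR adjusted p = 0.00428). Of 28 S phase genes, 3 rose (RRM1, TK1 and CDC45), 2 fell (POLE2 and CCNE1) and the median was 0.14, against 0.49 for the histone genes; the difference was not tested. CDC45, a subunit of the replicative helicase, had 110, 108 and 109 CPM in TAF1C-labelled libraries, against 58.0 and 71.7 CPM in eV-labelled libraries (0.75 ± 0.13; edgeR adjusted p = 0.00805). In eV replicate 2, 26 of the 28 S phase genes were higher than in replicate 1, as were 50 of the 64 histone genes. The median ratio of eV replicate 2 to replicate 1 was 1.32 for the S phase genes and 1.73 for the histone genes. Over all genes tested it was 0.987.

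**Figure D4:**
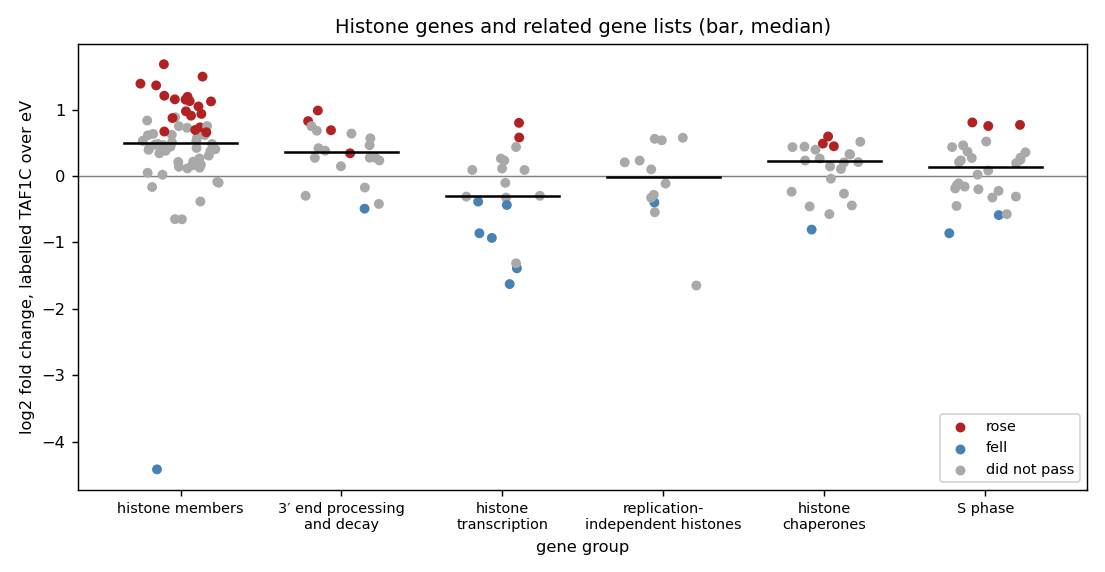
Log2 fold change (y axis, libraries labelled TAF1C over labelled eV, edgeR) of each tested gene in the histone genes and 5 related lists, with a black bar at the median and colours for the call. The bar lies at 0.49 for the histone genes, and between -0.30 and 0.36 for the other lists.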

How the data were processed

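The long RNA values are raw counts per gene, as deposited by the authors in 1 table per library; small RNA tables were not used here. The submitters' processing notes name Trimmomatic 0.36, HISAT2, Bowtie2 2.2.4, DESeq2 and Cufflinks 2.2.1, and hg19 as the genome. Their roles, the strand and the handling of reads matching several genes are not given in the sources used. The 5 libraries were grouped by their labels, 3 TAF1C and 2 eV.

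Rows with the same symbol were summed (57773 rows, 55771 symbols). A gene was kept if 2 or more libraries reached 1 CPM. Kept genes were compared by edgeR (version 4.0.16, R 4.3.3) with quasi-likelihood F tests, TMM factors and Benjamini-Hochberg adjustment over all 18402. SE is the absolute log2 fold change over the root of F. Class sums take in all genes, with no filter and no test. The fit was tested on simulated counts. DESeq2 1.42.0, other scalings, no filter, the replicate number as a block and each library left out were alternatives.

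Gene order, locus lengths and promoters came from RefSeq (GRCh38.p14) by symbol or synonym, with promoters for 66 of 71 genes. Motifs were searched as exact letters on both strands. Named genes were the 10 histone genes of highest mean CPM, up to 3 called genes of smallest adjusted p per class and list, SLBP and NPAT. Others (HIST1H2BE, HIST1H2BJ, HIST1H3F, HIST4H4, POU2F1, HINFP, H3F3B, the HIST3 pair and pseudogenes) were chosen after their values were seen. The genes and lists were chosen with earlier results of these data known. Figures were drawn in Python 3.11.15 with matplotlib 3.10.9.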

Additional observations from a re-analysis of the deposited data

How the results depend on the processing

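For the genes named, 402 results kept their direction and side of the threshold, 67 kept direction but no longer passed, 13 kept direction and newly passed, and 7 changed direction. In 4 of these neither value passed (without eV replicate 1, HIST1H2BC at -0.053 and SLBP at -0.036; with library totals, HIST1H1E at -0.063 and HIST1H3B at -0.031). The other 3 passed after the change: without eV replicates 1 and 2, HIST1H1E had -0.35 and 0.64, HIST1H3B -0.19 and 0.49, and HIST1H1C -0.46 and 0.24. Leaving out 1 library at a time gave 3095 to 11632 called genes, against 7080 with all 5, with 11 to 62 histone genes raised, 0 to 17 lowered and a median of 0.072 to 0.89. It gave class log2 ratios of 0.064 to 0.62 for H1, 0.18 to 0.82 for H2A, 0.20 to 0.89 for H2B, 0.13 to 0.85 for H3 and 0.28 to 0.94 for H4; the lowest came without eV replicate 1 and the highest without eV replicate 2.

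Scaling by library totals moved the median of all genes to -0.33, and 14 histone genes then rose (12.3% of all genes), with a median of 0.32 and 14 of 64 below 0. DESeq2 raised 23 histone genes (3678 of all genes), DESeq2's size factors in edgeR 19 (16.0%), no filter 17 (3.61%, 1817 against 2922 of all genes), and the highest row per symbol 19 (15.9%). HIST1H3E fell in each of these. Same-numbered libraries deviated from their group means with correlations of 0.03 and 0.13, and differently numbered ones with -0.13 to 0.11. The 2 libraries labelled eV deviate as mirror images of each other, so these values cannot decide whether the replicate numbers pair the libraries. With the replicate number as a block, 4087 of all genes were called and 13 histone genes rose (7.74% of all genes), all among the 19; HIST1H1B, HIST1H1D, HIST1H2AG, HIST1H2BJ, HIST1H3F and HIST1H4C did not pass. The causes of these changes were not tested. The filter of 1 CPM in 2 libraries kept 7 histone genes out of the test; for the 64 tested, the median coefficient of variation was 3.71% between libraries labelled TAF1C and 39.0% between those labelled eV.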

Other observations

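The long RNA tables also hold 18 rows of histone pseudogenes. Of these 4 reached the level tested, none rose by edgeR (1, HIST2H2BA, at an unadjusted p under 0.05) and 2 fell. Over all genes tested, 15.9% rose and 22.6% fell. HIST3H2BA had 0.143, 0.0588 and 0.309 CPM in the libraries labelled TAF1C, from 5, 2 and 10 counts, against 9.03 and 18.2 CPM in those labelled eV, a log2 fold change of -6.30 ± 0.66 (edgeR adjusted p = 0.00176). HIST2H2BC had 0.770, 0.676 and 0.557 CPM in TAF1C-labelled libraries, against 1.82 and 1.53 CPM in eV-labelled libraries (-1.32 ± 0.36; edgeR adjusted p = 0.0344). HIST2H2BA had 4.45, 3.74 and 3.93 CPM in TAF1C-labelled libraries, against 2.30 and 2.67 CPM in eV-labelled libraries, and did not pass (0.70 ± 0.28; edgeR adjusted p = 0.0963). Both rows that fell were lower in every library labelled TAF1C than in either labelled eV. They met the filter of 1 CPM in 2 libraries through the eV libraries alone, as did HIST1H1PS1, which did not pass. For such rows the filter itself sets the direction, so the 2 falls cannot be compared with the share over all genes. As given above, 19 of 22 tested photoreceptor markers also fell in the libraries labelled TAF1C, some of them tested through the eV libraries alone. The part of these markers in the pseudogene values was not tested.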
